A study of Mus musculus with 40 samples.

Results

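The antioxidant enzymes described here are 10 genes chosen by name: *Cat*, *Sod1*, *Sod2*, *Gpx1*, *Gpx4*, *Prdx1*, *Prdx6*, *Nqo1*, *Hmox1* and *Gclc*. All 10 were found among the 15958 genes measured by RNA sequencing in 40 libraries, and all 10 passed the filter on low values in each tissue. The mice were male C57BL/6 wild type, 8 weeks old at surgery, and underwent either a sham operation, in which the bowel was cut and rejoined, or small bowel resection (SBR), which leaves the duodenum and the terminal ileum. The labels give a resection of 50-60% of the small bowel, and the methods of the study give a different extent. From 3 weeks after surgery, mice received WUSTL0717 at 30 mg/kg or its vehicle by mouth each day for 7 weeks. WUSTL0717 is an agonist of the liver X receptors (LXR), nuclear receptors that sense sterols. The study took it up as putatively restricted to the gut, and reports that its pharmacokinetic and molecular analyses bore this out. Duodenum and post-anastomotic ileum each had 3 Sham Vehicle, 4 SBR Vehicle and 4 SBR WUSTL0717 libraries. Liver, taken from the median right lobe, had 5, 8 and 5 libraries of the same groups. There was no sham group given WUSTL0717. The study asked whether LXR activation confined to the gut lessens the liver injury that follows SBR, and the comparisons below ask how the antioxidant enzymes stood in each tissue.

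Cells that respire release superoxide and hydrogen peroxide, and the antioxidant enzymes remove these in sequence. Superoxide dismutases turn superoxide into hydrogen peroxide, and catalase, the glutathione peroxidases and the peroxiredoxins then reduce the peroxide. Glutathione, the small thiol that glutathione peroxidases consume, is made by an enzyme whose catalytic subunit is *Gclc*. *Nqo1* encodes a quinone reductase and *Hmox1* the enzyme that opens the heme ring, and both are, like *Gclc*, standard targets of the transcription factor NRF2, which is released from its inhibitor KEAP1 under oxidative or electrophilic stress and binds antioxidant response elements. Hepatocytes hold many peroxisomes and mitochondria and are rich in catalase and glutathione peroxidase. Enterocytes meet dietary iron, heme and lipid peroxides, and express the same families.

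Values are log2 TPM (reads scaled to transcript length and to the size of the library) after ComBat, a correction that the authors applied with the intestinal libraries as 1 batch and the liver libraries as the other. It pulled the tissue means of 99.4% of genes to within 1 log2 unit, so levels were compared within a batch only, and liver and intestine are set side by side without a test. The median of a library, over the genes tested in its tissue, differed between groups, from 3.06 to 3.37 in Liver Sham Vehicle and from 3.14 to 3.78 in Liver SBR Vehicle. Each fit was therefore repeated relative to the library median. Calls of the enzymes are given on that scale for each comparison, and single differences on it only where stated. The 11 duodenal libraries had medians of 2.22 to 3.21, and the 11 ileal libraries had medians of 3.20 to 3.85. Within the intestinal batch, the summed level of 5 duodenal markers was 7.40 to 7.75 in the duodenum and 3.50 to 5.94 in the ileum, whereas that of 4 ileal markers was 3.67 to 4.87 and 7.03 to 9.24 (log2 of summed TPM plus 1). The identity of the liver cannot be checked against the intestine after this correction. Several libraries stood apart. Liver SBR Vehicle replicate 2 had the lowest value of its group for all 10 enzymes. The summed level of pancreatic acinar genes was 10.4 in Liver SBR Vehicle replicate 7, against 4.26 to 4.43 in the other liver libraries, and between 3.87 and 10.3 in the duodenum. Duodenum SBR Vehicle replicate 1 had a library median of 3.20, and the other libraries of its group lay between 2.22 and 2.73. Ileum SBR WUSTL0717 replicate 2 had a library median of 3.85, against 3.28 to 3.37 in the rest of its group, a hepatocyte marker sum of 13.6 and the highest value of the group for 6 of the 10 enzymes, *Sod1*, *Sod2*, *Prdx1*, *Prdx6*, *Gclc* and *Nqo1*. The labels do not say that each library is a separate mouse, so p-values measure only the spread between these samples.

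On GRCm38, *Cat* spans chr2:103453849-103485160 on the minus strand, *Sod1* chr16:90220754-90226329 (plus), *Sod2* chr17:13006846-13040063 (plus), *Gpx1* chr9:108338903-108340343 (plus) and *Gpx4* chr10:80047166-80056439 (plus). *Prdx1* spans chr4:116685544-116700822 (plus), *Prdx6* chr1:161240112-161251219 (minus), *Nqo1* chr8:107388225-107403206 (minus), *Hmox1* chr8:75093621-75100589 (plus) and *Gclc* chr9:77754535-77794485 (plus). Promoter sequences from RefSeq (GRCm38.p6) were matched for 7 of the 10. The 250 bases before the start are shown for *Nqo1*, which had the largest change in liver, and for *Cat* and *Sod1*, which among the 10 had the smallest p-values in the duodenum between SBR WUSTL0717 and SBR Vehicle. They lie at chr8:107403206-107403455 (minus strand), chr2:103485154-103485403 (minus) and chr16:90220512-90220761 (plus), and capitals mark the core of the antioxidant response element.
Nqo1: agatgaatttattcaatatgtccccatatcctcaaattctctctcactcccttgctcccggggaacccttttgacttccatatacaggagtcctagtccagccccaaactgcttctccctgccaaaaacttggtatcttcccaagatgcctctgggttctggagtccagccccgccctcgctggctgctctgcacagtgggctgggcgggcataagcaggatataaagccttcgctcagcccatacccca
Cat: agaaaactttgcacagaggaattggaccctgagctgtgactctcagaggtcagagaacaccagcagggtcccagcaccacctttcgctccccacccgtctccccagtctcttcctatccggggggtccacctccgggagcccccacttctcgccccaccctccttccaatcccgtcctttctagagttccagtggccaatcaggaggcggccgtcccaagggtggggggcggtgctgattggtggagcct
Sod1: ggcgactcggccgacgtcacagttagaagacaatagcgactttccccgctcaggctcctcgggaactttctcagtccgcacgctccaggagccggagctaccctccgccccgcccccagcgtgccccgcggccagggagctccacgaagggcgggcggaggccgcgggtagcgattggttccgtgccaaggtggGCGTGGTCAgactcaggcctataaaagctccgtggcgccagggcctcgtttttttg

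The core, TGACNNNGC on either strand, was found in windows of 250 bases before to 50 bases after the start. It matched once in *Sod1* (GCGTGGTCA, with its first base at -56, core on the reverse strand) and once in *Prdx1* (GCTGAGTCA, first base at -133, reverse strand), and not in the windows of *Cat*, *Nqo1*, *Gpx1*, *Gpx4* or *Sod2*. Of 32851 mouse promoter windows of that length, 12.4% held the core. The GC box GGGCGG was present at 4 positions in *Sod1*, 2 in *Nqo1* and 1 in *Cat*, and 35.7% of all windows held it. The letters TATAAA began at -37 in *Sod1* and at -29 in *Nqo1* and *Prdx1*, and 13.6% of all windows held them. These matches describe letters in a short window and were not measured as sites.

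ComBat moved each gene toward its level in the other batch by its own amount, so the order of genes below is that of the corrected values and not that of the tissue: *Alb*, the albumin gene, stood at 9.48 in the sham liver. In these values of the sham liver, *Gpx1*, the cytosolic and mitochondrial glutathione peroxidase, had the highest level at 10.21 ± 0.18 log2 TPM (SD, n = 5), followed by *Cat* at 9.86 ± 0.14. *Sod1* (8.50 ± 0.12), *Gpx4* (8.19 ± 0.13) and *Prdx1* (8.10 ± 0.18) came next. The ranges of *Sod1* and *Gpx4* overlapped, but *Sod1* was the higher in 5 of 5 libraries, by 0.32 ± 0.062 (SD of the difference within a library). *Gpx4* and *Prdx1* differed by 0.089 ± 0.12, which is within their spread. *Prdx6* (7.27 ± 0.16), *Gclc* (6.31 ± 0.37) and *Sod2* (5.22 ± 0.14) followed with separate ranges, and *Nqo1* (3.80 ± 0.29) and *Hmox1* (3.35 ± 0.12) were lowest, with overlapping ranges but *Nqo1* higher in 5 of 5 libraries. In Liver SBR Vehicle, *Gpx4* stood above *Sod1*, and *Nqo1* stood above *Sod2*. *Gpx1* and *Cat* remained the 2 highest and *Hmox1* the lowest in all 3 liver groups. *Gpx1* was also first in the sham duodenum (11.01 ± 0.16, n = 3) and the sham ileum (8.93 ± 0.39, n = 3). *Cat* had the highest mean in both intestinal regions with WUSTL0717, at 10.80 ± 0.52 (n = 4) in the duodenum and 9.51 ± 0.53 (n = 4) in the ileum. It was above *Gpx1* in 4 of 4 ileal libraries, but in 2 of 4 duodenal ones, where the difference of 0.48 ± 0.77 (SD) is within the spread. *Hmox1* had the lowest mean in every ileal group, but its difference from *Nqo1* was within the spread in each, at 0.46 ± 0.49 in sham, 0.17 ± 0.49 in SBR Vehicle and 0.11 ± 0.73 with WUSTL0717 (SD), and *Nqo1* was the higher in 3 of 3, 2 of 4 and 2 of 4 libraries.

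**Figure D1:**
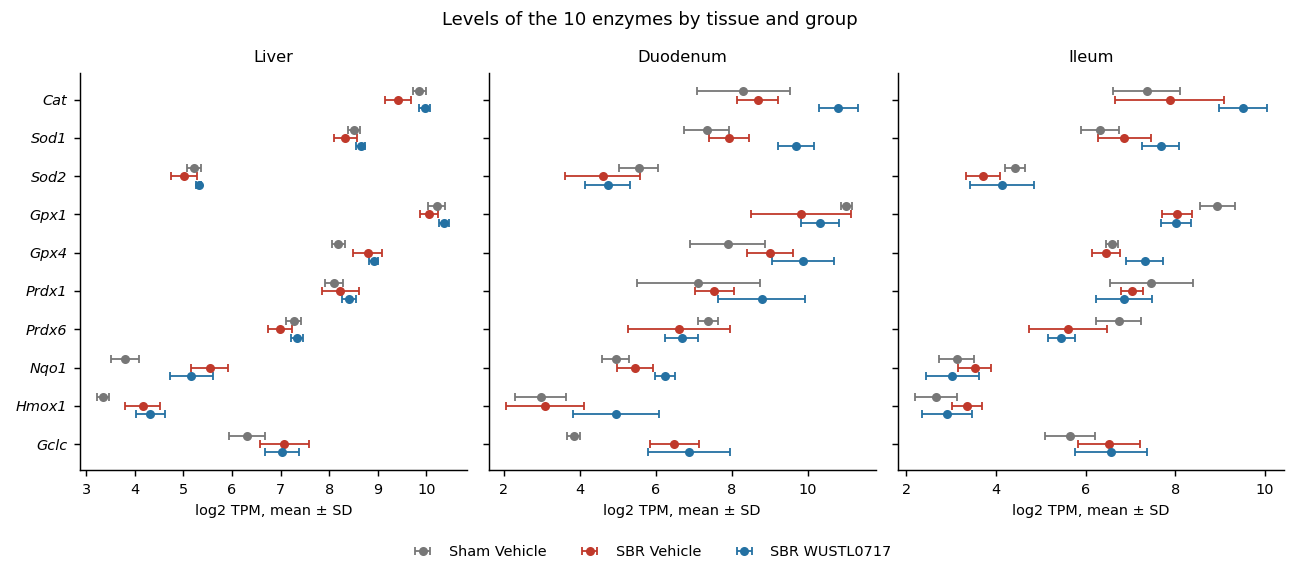
Mean log2 TPM of the 10 enzymes in each group, with liver and intestine in separate panels; points are group means and bars 1 SD over 3 to 8 libraries. *Gpx1* and *Cat* are the 2 highest and *Hmox1* the lowest in each liver group, and *Cat* has the highest mean in both intestinal regions with WUSTL0717.

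The first question in the liver was what SBR did with vehicle alone. Of the 10 enzymes, 4 were higher in SBR Vehicle than in Sham Vehicle, and these were *Nqo1*, *Hmox1*, *Gclc* and *Gpx4*. Only *Cat* was lower by the test. This gives 5 of 10 at an adjusted p under 0.05 (limma, Benjamini-Hochberg over 15901 genes), beside 41.9% of all genes. Called higher were 37.4% of all genes, and called lower 4.47%. The share of the enzymes is therefore near that of all genes, and what follows concerns single genes. Differences of all genes had a median of 0.25, which fell to -0.06 after each library was centred on its median, and the median over the enzymes was -0.02 (-0.32 after centring). Of all genes called, 89.3% were higher, and 41.5% after centring.

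The quinone reductase *Nqo1* showed the largest change. It was 3.77, 3.41, 3.98, 4.16 and 3.67 log2 TPM in the sham livers, and ran from 4.75 through a median of 5.59 to 6.00 in the 8 SBR Vehicle livers. Every SBR Vehicle library lay above every sham library, as was so for 15.6% of all genes. The difference was 1.74 ± 0.20 (log2, SE), or 3.34-fold, with an adjusted p of 1.85e-06, and the exact two-sided permutation p was 0.000777, the smallest that 5 against 8 can give. Relative to the library median it was 1.43 (adjusted p = 2.72e-07). 

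*Hmox1*, which releases iron, carbon monoxide and biliverdin from heme, was 3.36, 3.19, 3.30, 3.39 and 3.53 in the sham livers, and its lowest, median and highest values after SBR were 3.47, 4.23 and 4.74. The groups overlapped by 1 library, SBR Vehicle replicate 2. The difference was 0.81 ± 0.16, or 1.75-fold (adjusted p = 0.000551, exact p = 0.00233), and 0.50 relative to the library median (adjusted p = 0.000799).

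*Gclc*, the catalytic subunit of the rate-limiting enzyme of glutathione synthesis, was 5.84, 6.44, 6.65, 6.61 and 5.99 in the sham livers and spanned 6.06 to 7.64 around a median of 7.08 after SBR. Most SBR Vehicle libraries lay above the sham range, but the lowest lay inside it. The difference was 0.77 ± 0.23, or 1.71-fold (adjusted p = 0.0104, exact p = 0.0171). Relative to the library median it was 0.47 and missed the threshold (adjusted p = 0.0568). *Gclc* was called in 10 of 12 alternatives, and the highest adjusted p over these was 0.108.

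Of the glutathione peroxidases among the 10, *Gpx4* was called higher and *Gpx1* was not called. *Gpx4*, which reduces lipid hydroperoxides within membranes, was 8.28, 8.04, 8.19, 8.35 and 8.09 in the sham livers, and 8.14, 8.93 and 9.01 were the lowest, median and highest values after SBR. In 7 of the 8 SBR Vehicle livers it lay above all sham values. The difference was 0.60 ± 0.13, or 1.52-fold (adjusted p = 0.000776, exact p = 0.00466), and 0.30 relative to the library median (adjusted p = 0.00023). *Gpx1* differed by -0.16 ± 0.11 (adjusted p = 0.234), and by -0.47 relative to the library median (adjusted p = 1.35e-05), so whether it was called lower depended on the scaling.

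Catalase, which breaks down hydrogen peroxide in peroxisomes, was the enzyme called lower. *Cat* was 9.91, 9.63, 9.93, 9.97 and 9.83 in the sham livers and ran from 8.86 through 9.52 to 9.61 after SBR. The groups did not overlap, which was so in the lower direction for 1.62% of all genes. *Cat* fell by 0.44 ± 0.12 (adjusted p = 0.00698, exact p = 0.000777), and by 0.75 relative to the library median (adjusted p = 1.93e-07).

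The cytosolic dismutase *Sod1* differed by -0.17 ± 0.11 (adjusted p = 0.215) and the mitochondrial dismutase *Sod2* by -0.21 ± 0.12 (adjusted p = 0.161). Relative to the library median these differences were -0.48 (adjusted p = 1.04e-06) and -0.51 (adjusted p = 3.89e-07). *Prdx6*, a peroxiredoxin that also handles phospholipid peroxides, differed by -0.28 ± 0.12 (adjusted p = 0.0618), or -0.58 relative to the median (adjusted p = 1.05e-06). *Prdx1*, a cytosolic thioredoxin-dependent peroxidase, differed by 0.13 ± 0.16 (adjusted p = 0.531), and its direction flipped to -0.18 relative to the median (adjusted p = 0.0899). After centring, 8 of the 10 were called, with *Nqo1*, *Hmox1* and *Gpx4* higher and *Cat*, *Sod1*, *Sod2*, *Gpx1* and *Prdx6* lower, beside 20.4% of all genes higher and 28.8% lower.

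The 5 calls were kept when any 1 of the 13 libraries was left out. Without SBR Vehicle replicate 2, which was lowest for every enzyme, *Nqo1* differed by 1.85, *Hmox1* by 0.91, *Gclc* by 0.92, *Gpx4* by 0.70 and *Cat* by -0.36, and *Prdx1* was also called (0.26, adjusted p = 0.0247). *Prdx6* was called without Sham Vehicle replicate 2 (-0.34), SBR Vehicle replicate 4 (-0.31) or SBR Vehicle replicate 5 (-0.32). Without SBR Vehicle replicate 7, which held the acinar genes, *Gclc* was 0.69 (adjusted p = 0.0222) and *Gpx4* 0.57.

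Cell type markers moved with these differences. The summed level of 6 cholangiocyte markers was 6.06 to 7.39 in sham and 8.52 to 9.55 in SBR Vehicle, with 6 of 6 genes called higher, and that of 9 stellate cell and fibroblast markers was 6.69 to 7.26 and 8.59 to 9.41, with 9 of 9 higher. Of all genes 37.4% were called higher. The sum of 8 hepatocyte markers was 11.6 to 12.0 in sham and 10.8 to 11.8 in SBR Vehicle. Of these 8, 3 were called lower and 8 after centring, beside 4.47% and 28.8% of all genes. Macrophage and Kupffer cell markers summed to 8.40 to 8.88 and 8.82 to 9.82. The part of these markers in the enzymes' differences was not tested. In bulk tissue, fewer cells of a type and less RNA per cell cannot be told apart.

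**Figure D2:**
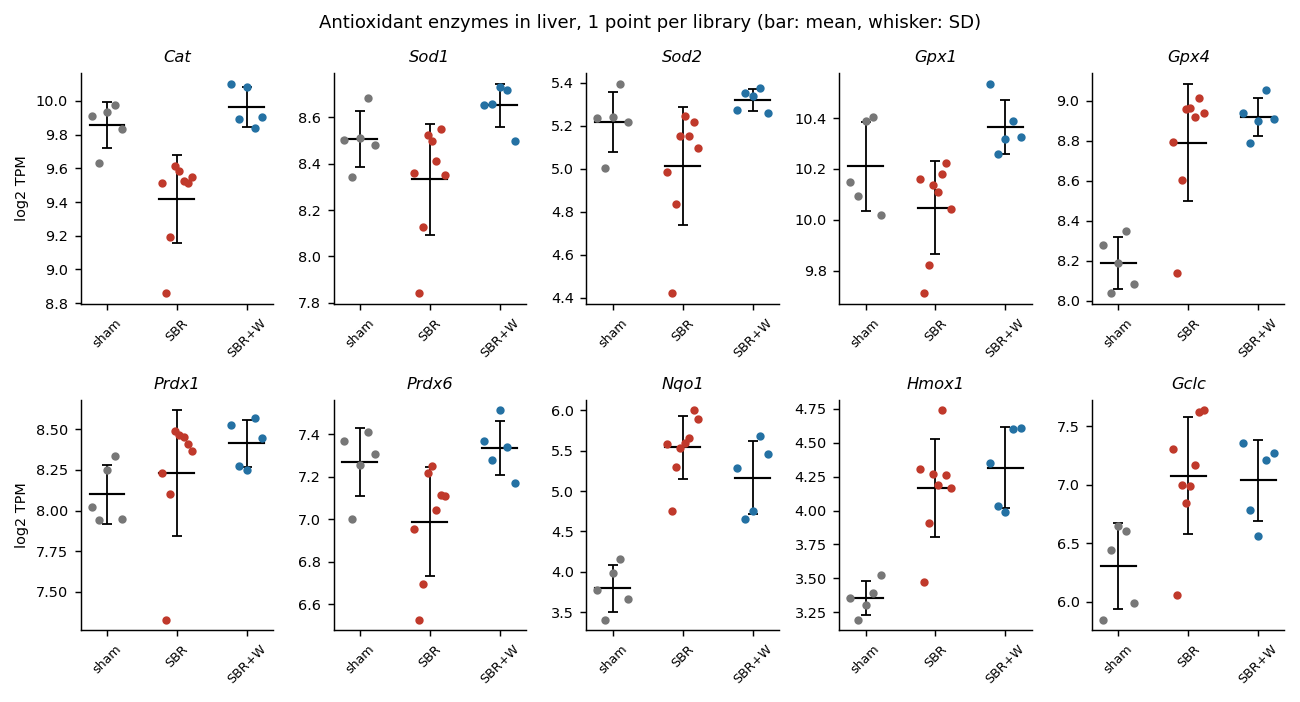
Log2 TPM of the 10 enzymes in each of the 18 liver libraries (points) with group means (bars), where SBR is SBR Vehicle and SBR+W is SBR WUSTL0717. The *Nqo1* points of sham and SBR do not overlap, and the *Cat* points of SBR lie below those of both other groups.

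The next comparison asked what WUSTL0717 changed in the liver after SBR, and it shares its 8 SBR Vehicle libraries with the one above. *Cat* was the single enzyme called, and it was higher with the drug. It was 10.10, 9.89, 10.08, 9.84 and 9.90 log2 TPM with WUSTL0717, against 8.86 to 9.61 (median 9.52) with vehicle. All 5 treated livers lay above all 8 vehicle livers. The difference was 0.55 ± 0.12, or 1.46-fold (adjusted p = 0.0178, exact p = 0.000777), and it was the same size relative to the library median (adjusted p = 0.000281). Among all genes 4.1% were called in either direction, and 1.44% of all genes were higher. The *Cat* call was lost without SBR WUSTL0717 replicate 1 (0.51, adjusted p = 0.0643), replicate 2 (0.56, adjusted p = 0.0539) or replicate 3 (0.52, adjusted p = 0.0711). It was also lost in a fit of these groups alone (adjusted p = 0.0593) and in an unmoderated two-sample test (adjusted p = 0.106).

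*Sod2* was 5.28, 5.35, 5.34, 5.38 and 5.26 with WUSTL0717, all above the vehicle range of 4.42 to 5.24, and *Gpx1* was 10.54, 10.26, 10.32, 10.39 and 10.32, all above 9.71 to 10.22. With *Cat* that makes 3 of 10 enzymes whose treated libraries all lay higher, beside 1.23% of all genes. Their adjusted p-values did not pass, at 0.156 for *Sod2* (difference 0.31 ± 0.12) and 0.112 for *Gpx1* (0.32 ± 0.11). Values of similar size were seen for *Sod1* (0.32 ± 0.11, adjusted p = 0.113) and *Prdx6* (0.34 ± 0.12, adjusted p = 0.109).

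Relative to the library median, *Cat*, *Sod1*, *Sod2*, *Gpx1* and *Prdx6* were all called higher with WUSTL0717, by 0.55, 0.32, 0.31, 0.32 and 0.35 (adjusted p between 0.000281 and 0.00271). This is 5 of 10 enzymes, beside 11.5% of all genes. The median difference of all genes was 0.02 before and 0.03 after centring, so the sizes hardly moved. Centring narrowed the spread of these 5 in SBR Vehicle (for *Cat* the SD went from 0.26 to 0.081) and widened it with WUSTL0717 (from 0.12 to 0.21). Between SBR Vehicle and sham these 5 had differed on this scale by -0.75, -0.48, -0.51, -0.47 and -0.58, and both comparisons rest on the same SBR Vehicle libraries. The NRF2 targets did not pass on either of these scales. *Nqo1* differed by -0.37 ± 0.20 (adjusted p = 0.363), but was called lower in 3 of 12 alternatives, which were library weights (-0.50, adjusted p = 0.0257), quantile normalization, and centring with SBR Vehicle replicate 2 left out. *Hmox1* differed by 0.15 ± 0.16 (adjusted p = 0.723) and *Gclc* by -0.04 ± 0.23 (adjusted p = 0.964). *Gpx4* (0.13 ± 0.13, adjusted p = 0.697) and *Prdx1* (0.18 ± 0.16, adjusted p = 0.635) were not called.

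Cholangiocyte markers summed to 7.71 to 8.94 with WUSTL0717, with 5 of 6 genes called lower than in SBR Vehicle, and stellate cell and fibroblast markers to 7.86 to 8.78, with 4 of 9 lower. Of all genes 2.66% were called lower. Hepatocyte markers summed to 11.6 to 12.1, and 5 of 8 were called higher after centring, beside 11.5% of all genes. Their part in the higher *Cat* was not tested.

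Set directly against sham, the treated livers differed in 4 enzymes, all higher, beside 27.9% of all genes higher and 0.906% lower. Without overlap with sham were 3 of them, beside 27.4% of all genes. *Nqo1* was 5.28, 4.65, 4.75, 5.69 and 5.46 with WUSTL0717, and the difference was 1.37 ± 0.22 or 2.58-fold (adjusted p = 0.000438, exact p = 0.00794, the smallest that 5 against 5 can give). *Hmox1* at 4.35, 4.03, 3.99, 4.60 and 4.61 was 0.96 ± 0.18 higher, or 1.95-fold (adjusted p = 0.00108, exact p = 0.00794), and *Gpx4* at 8.94, 8.79, 8.90, 9.05 and 8.91 was 0.73 ± 0.14 higher, or 1.66-fold (adjusted p = 0.00127, exact p = 0.00794). Relative to the library median these 3 were still called higher, by 1.07, 0.66 and 0.43, beside 10.7% of all genes.

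*Gclc* at 7.36, 6.78, 6.56, 7.21 and 7.27 was 0.73 ± 0.25 higher (adjusted p = 0.0371, exact p = 0.0238), and overlapped sham. Its call was lost without Sham Vehicle replicate 1 (0.61), 2 (0.76) or 5 (0.65), without SBR WUSTL0717 replicate 1 (0.65), 4 (0.69) or 5 (0.67), and relative to the library median (0.43, adjusted p = 0.176). *Cat* differed from sham by 0.11 (adjusted p = 0.539), but by -0.19 relative to the library median (adjusted p = 0.094). *Sod1*, *Sod2*, *Gpx1* and *Prdx6* likewise changed sign, from between 0.07 and 0.15 to between -0.15 and -0.23, and of these *Sod2* (-0.20, adjusted p = 0.0219) and *Prdx6* (-0.23, adjusted p = 0.03) were called lower after centring, beside 8.93% of all genes. *Prdx1* differed by 0.31 ± 0.18 (adjusted p = 0.171).

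**Figure D3:**
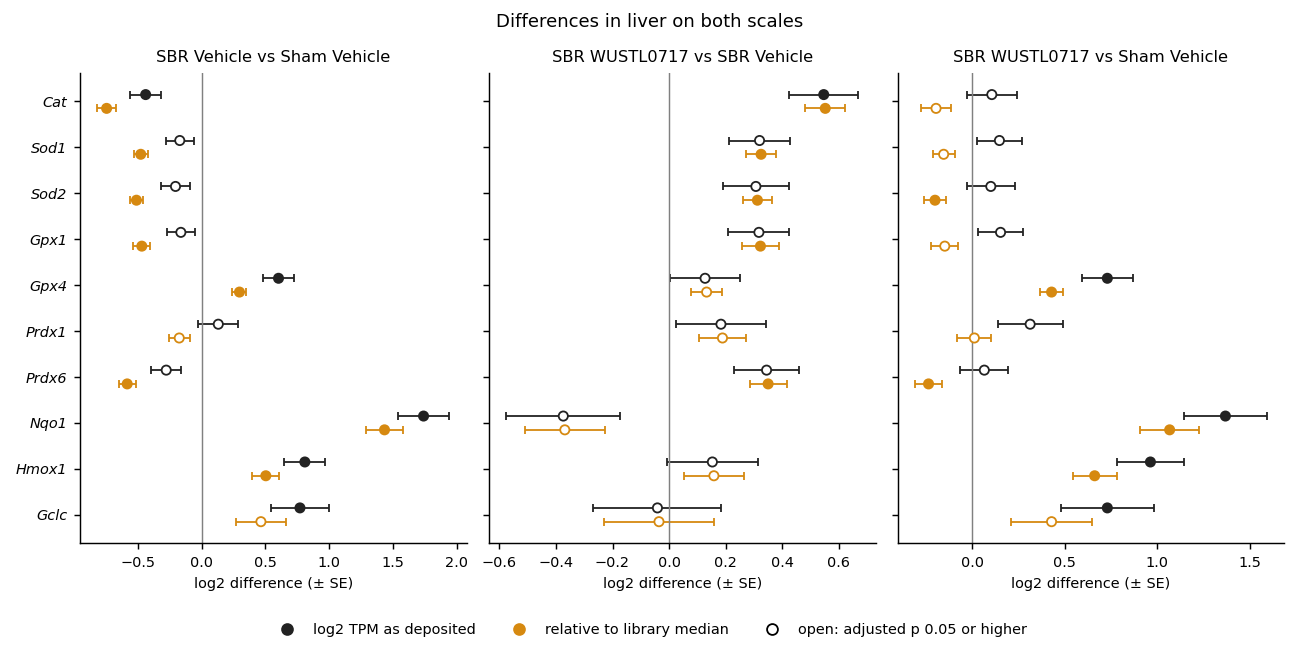
Log2 differences (points) with standard errors (bars) of the 10 enzymes in the 3 liver comparisons, black as deposited and orange relative to the library median, filled where the adjusted p is under 0.05. *Nqo1* has the largest difference from sham in both SBR groups, and *Cat* is below 0 after SBR and above 0 with WUSTL0717.

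The other genes of the pathway were followed in 13 lists of 118 known genes, 108 of them in the table. After SBR, 47 of the 108 were called higher and 6 lower in the liver, with a median difference of 0.24, beside 0.25 for all genes, and after centring 36 were higher and 40 lower. Of all genes 37.4% were higher and 4.47% lower, which is near the first pair of counts, and 20.4% and 28.8% after centring. *Srxn1*, the sulfiredoxin that repairs overoxidized peroxiredoxins, rose by 2.57 ± 0.29 (adjusted p = 1.22e-06), *Txnrd1*, which reduces thioredoxin, by 0.75, and the mitochondrial peroxiredoxin *Prdx3* by 0.54, and these were the 3 genes of 13 called in their list. Among 17 further NRF2 targets 10 were higher and 0 lower, and 8 higher and 4 lower after centring, beside 37.4% of all genes higher and 20.4% after centring. They were led by the glutathione transferase *Gstm3* at 3.82 ± 0.34 (adjusted p = 1.08e-07), with the transporter *Abcc4* at 1.96 and the carbonyl reductase *Cbr1* at 1.38. All 4 other glutathione peroxidases were higher, among them *Gpx3* (1.52), *Gpx2* (1.41) and *Gpx7* (1.40).

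The counts in the smaller lists also stand beside 37.4% of all genes higher, and beside 20.4% higher and 28.8% lower after centring. Of 10 regulators of the NRF2 pathway 6 were higher and 0 lower, but 3 higher and 4 lower after centring. They included *Sqstm1* (1.03), whose product sequesters KEAP1, the small MAF partner *Mafk* (0.93) and *Nfe2l2* itself (0.55), the gene of NRF2. Of 7 genes that supply NADPH 4 were higher and 0 lower, and 3 higher and 1 lower after centring, including *Pgd* (1.34), *Idh2* (0.82) and *G6pdx* (0.80). In glutathione synthesis and turnover 3 of 7 were higher, namely *Ggt1* (0.60), *Gss* (0.57) and *Gsr* (0.56), and 1 was lower, with 3 higher and 3 lower after centring. Of 10 genes of heme and iron handling 6 were higher and 0 lower, and 4 higher and 2 lower after centring, including the heme transporter *Slc48a1* (1.12), the biliverdin reductase *Blvrb* (0.57) and the ferritin light chain *Ftl1* (0.55).

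The metallothioneins *Mt1* and *Mt2* rose by 2.52 and 1.51. Of 9 NADPH oxidase genes, which make superoxide or hydrogen peroxide, 5 were higher, among them *Cyba* (1.14) and *Ncf4* (0.99), and *Nox4* fell by 1.12 ± 0.11. After centring 5 were again higher and 1 lower, beside 37.4% of all genes higher before centring and 20.4% after. The peroxisomal oxidases produce hydrogen peroxide where catalase removes it. Of 9 in the list 0 were higher, and *Hao1*, *Uox* and *Pipox* fell by 0.91, 0.77 and 0.48. After centring, 8 of the 9 were lower, as were 7 of 13 genes of peroxisome assembly, beside 28.8% of all genes. *Sod3*, the secreted dismutase, rose by 0.63, and in selenoprotein synthesis 2 of 5 genes were higher and 1, *Sephs2* (-0.68), lower, and 0 higher and 3 lower after centring.

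With WUSTL0717 against SBR Vehicle in the liver, 5 of the 108 were called higher and 0 lower, beside 1.44% and 2.66% of all genes. After centring 32 were higher and 7 lower, beside 11.5% and 8.19%. They included the peroxisomal oxidase *Uox* (0.58), *Nox4* (0.51), *Sephs2* (0.49) and the microsomal glutathione transferase *Mgst1* (0.48). After centring, 4 of 9 peroxisomal oxidases and 6 of 13 peroxisome assembly genes were higher and 0 lower. *Srxn1* (-0.70, adjusted p = 0.198) did not pass. Against sham, the treated livers had 49 of the 108 higher and 2 lower, beside 27.9% and 0.906% of all genes, and after centring 33 higher and 12 lower, beside 10.7% and 8.93%. Among them were *Gstm3* at 2.82, *Srxn1* at 1.87 and *Mt1* at 1.59.

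The genes whose profile over the 18 liver libraries came nearest to each enzyme were found by the root mean square difference of values centred on the library median and standardized (in SD), as a description. *Nqo1* was nearest to *Srxn1* (0.194), *Mtmr11* (0.216) and *Gsta1* (0.225). *Cat* was nearest to *Gstk1* (0.189), *Serpinf1* (0.211) and *Lap3* (0.218). *Sod2* was nearest to *Ndufb9* (0.185), *Sdha* (0.192) and *Maob* (0.204), and *Sod1* to *Ndufv1* (0.222), *Ndufs7* (0.228) and *Cyp2c50* (0.239). For *Prdx6* the value for *Dera* was 0.182, and for *Gpx1* that for *Ugt3a1* was 0.280. Less close neighbours were *Psmc2* for *Prdx1* (0.330), *Entpd1* for *Hmox1* (0.341) and *Tubb4b* for *Gclc* (0.422). Among the enzymes themselves *Sod1* and *Sod2* were the closest pair (0.237), and *Cat* and *Gpx4* differed by 1.62.

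In the duodenum, which SBR leaves in place, no enzyme was called between SBR Vehicle and Sham Vehicle. After centring 0 were called as well, beside 0.636% of all genes on that scale. By limma 0 of 15093 genes were called (0%), although 1 of the 10 enzymes and 2426 genes (16.1%) had an unadjusted p under 0.05, and an unmoderated two-sample test called 0 enzymes. The exception at the unadjusted level was *Gclc*. It was 3.97, 3.65 and 3.87 log2 TPM in sham and 5.86, 5.99, 7.11 and 6.99 in SBR Vehicle, and the groups did not overlap, as was so for 3.41% of all genes in that direction. The difference was 2.65 ± 0.58, or 6.29-fold (adjusted p = 0.187, exact p = 0.0286, the smallest that 4 against 3 can give), and 3.06 relative to the library median (adjusted p = 0.0582). Without SBR Vehicle replicate 1 it was called (2.86, adjusted p = 0.0455).

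The remaining duodenal differences after SBR lay between -1.20 for *Gpx1* (adjusted p = 0.349) and 1.11 for *Gpx4* (adjusted p = 0.357). *Gpx1* was 10.85, 11.04 and 11.15 in sham and 11.64, 9.78, 8.59 and 9.23 in SBR Vehicle, so its 1 high value in SBR Vehicle came from replicate 1. *Sod2* (-0.95, adjusted p = 0.388) and *Prdx6* (-0.77, adjusted p = 0.529) also had replicate 1 as the highest value of the SBR Vehicle group. Without that library *Gpx1* differed by -1.81 (adjusted p = 0.0504), *Sod2* by -1.39 (adjusted p = 0.0942) and *Prdx6* by -1.40 (adjusted p = 0.0755).

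WUSTL0717 was then compared with vehicle in the duodenum after SBR. All 10 differences were above 0, with a median of 0.83 beside 0.04 for all genes, but limma called 0 of the 10 enzymes, beside 0.258% of all genes. At an unadjusted p under 0.05 there were 3, beside 5.31% of all genes, and the unmoderated test called 0. After centring limma also called 0, beside 0.219% of all genes, and all 10 differences were again above 0, with a median of 0.78. With quantile normalization, *Gpx1* (-0.024), *Prdx6* (-0.27) and *Gclc* (-0.0082) turned below 0. *Cat* was 8.42, 8.32, 9.49 and 8.49 with vehicle and 10.73, 10.10, 11.20 and 11.18 with WUSTL0717, and *Sod1* was 8.47, 8.11, 7.22 and 7.94 with vehicle and 9.22, 9.73, 10.32 and 9.47 with the drug. For both, every treated library lay above every vehicle library, as it did for 2.11% of all genes. *Cat* differed by 2.12 ± 0.54, or 4.35-fold (adjusted p = 0.233, exact p = 0.0286), and *Sod1* by 1.75 ± 0.43, or 3.37-fold (adjusted p = 0.215, exact p = 0.0286). An exact p of 0.0286 is the smallest that 4 against 4 can give.

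*Hmox1* was 3.27, 2.12, 2.50 and 4.43 with vehicle and 4.82, 4.15, 4.25 and 6.58 with WUSTL0717. Vehicle replicate 4 lay above 2 of the treated libraries, and the difference was 1.87 ± 0.63, or 3.65-fold (adjusted p = 0.602, exact p = 0.0857). *Nqo1* differed by 0.79 (adjusted p = 0.949) and *Prdx1* by 1.24 (adjusted p = 1). The smallest differences were those of *Prdx6* (0.07) and *Sod2* (0.13), and both turned below 0 without Duodenum SBR Vehicle replicate 2 (-0.18 and -0.10) or 4 (-0.30 and -0.14), *Prdx6* also without SBR WUSTL0717 replicate 1 (-0.11).

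Between treated and sham duodenum, 2 enzymes were called higher, beside 0.749% of all genes. *Gclc* was 6.15, 8.26, 5.88 and 7.16 with WUSTL0717, against 3.65 to 3.97 in sham, a difference of 3.03 ± 0.58 or 8.16-fold (adjusted p = 0.0352, exact p = 0.0286). *Sod1*, at 6.70, 7.89 and 7.42 in sham, differed by 2.35 ± 0.47, or 5.11-fold (adjusted p = 0.0432, exact p = 0.0286). *Cat*, at 6.90, 9.16 and 8.85 in sham, differed by 2.50 ± 0.58, or 5.65-fold (adjusted p = 0.0806), and was called relative to the library median (2.86, adjusted p = 0.0181), which with *Sod1* (2.72) and *Gclc* (3.39) made 3 of 10, beside 2.41% of all genes. In 6 of the 10 all treated libraries lay above all sham libraries, beside 5.58% of all genes, and these were *Cat*, *Sod1*, *Gpx4*, *Nqo1*, *Hmox1* and *Gclc*. *Gpx4* differed by 1.97 (adjusted p = 0.176), *Nqo1* by 1.30 (adjusted p = 0.176) and *Hmox1* by 1.98 (adjusted p = 0.214).

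Neither duodenal call held throughout. Both were lost in a fit of the compared groups alone (adjusted p = 0.0968 for *Sod1* and 0.0898 for *Gclc*) and in the unmoderated test (adjusted p = 0.137 and 0.157), and that of *Sod1* with a pseudocount of 5 (adjusted p = 0.0512). The *Sod1* call was lost without any 1 of the 7 libraries: without Sham Vehicle replicate 1 (2.04), 2 (2.63) or 3 (2.39), or without SBR WUSTL0717 replicate 1 (2.51), 2 (2.34), 3 (2.14) or 4 (2.42), with adjusted p between 0.0595 and 0.176. That of *Gclc* was lost without Sham Vehicle replicate 1 (3.10), 2 (2.94) or 3 (3.05), or SBR WUSTL0717 replicate 2 (2.56) or 4 (2.93). The summed level of 7 enterocyte markers was 12.2 to 13.2 in sham, 12.8 to 13.1 in SBR Vehicle and 13.6 to 14.6 with WUSTL0717. Against sham, 1 of the 7 was called higher with WUSTL0717, beside 0.749% of all genes. Most of this sum was *Fabp1*, with means of 12.50, 12.79 and 14.02, and *Sis*, the sucrase-isomaltase gene, differed by 0.33 between WUSTL0717 and sham. Macrophage markers summed to 8.23 to 10.2, 6.73 to 8.06 and 7.15 to 8.31. Acinar markers summed to 6.02 to 9.998 in sham, 3.87 to 9.51 in SBR Vehicle and 7.06 to 10.3 with WUSTL0717, which overlap. The part of these markers in the enzymes' differences was not tested.

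**Figure D4:**
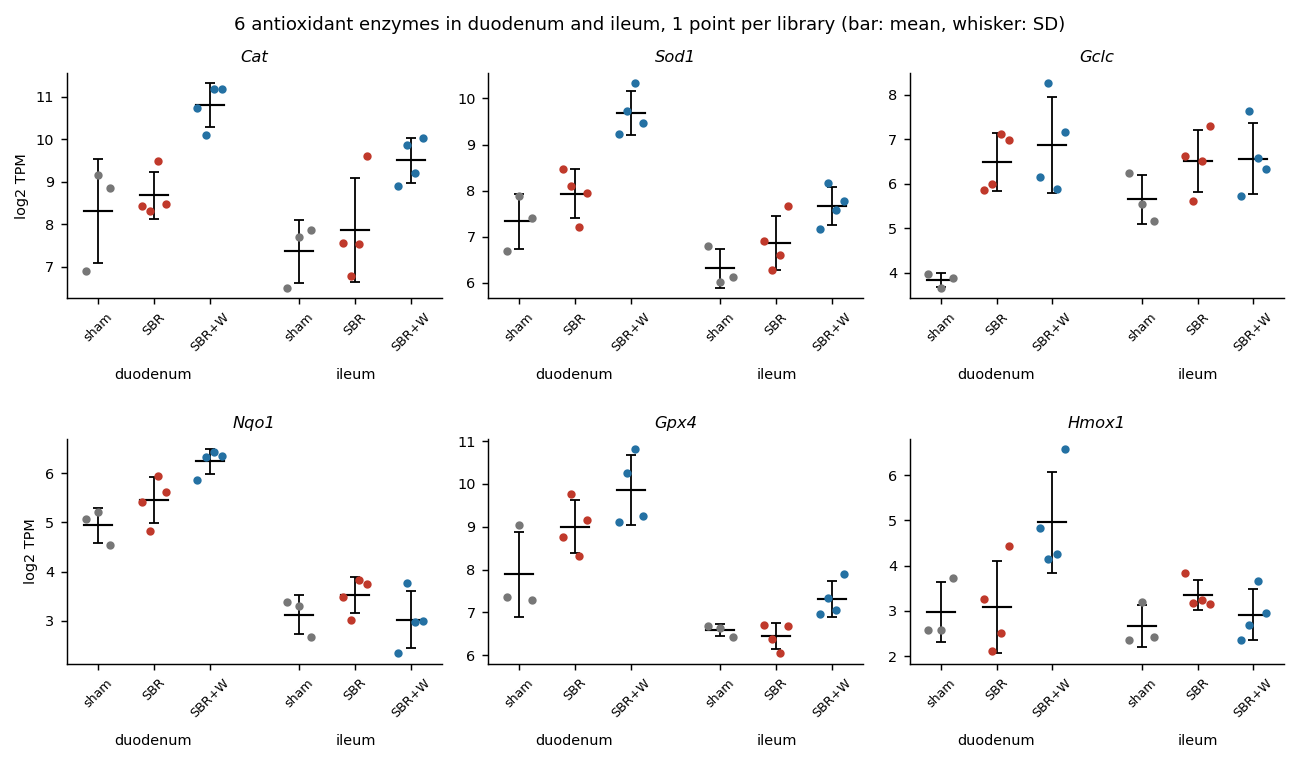
Log2 TPM of *Cat*, *Sod1*, *Gclc*, *Nqo1*, *Gpx4* and *Hmox1* in each of the 22 intestinal libraries (points) with group means (bars). SBR is SBR Vehicle and SBR+W is SBR WUSTL0717. *Cat* and *Sod1* have their highest group means with WUSTL0717 in both regions, and the sham duodenum has the lowest *Gclc* values.

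In the ileum after the anastomosis, limma called 0 of the 10 enzymes in each of the 3 comparisons, beside 0.349%, 0.0697% and 2.17% of 15772 genes. At an unadjusted p under 0.05 there were 2, 3 and 5 of 10, beside 8.46%, 6.87% and 14.1% of all genes, and an unmoderated test called 0 in each. After centring limma also called 0 in each, beside 0.469%, 0.0824% and 2.69% of all genes. Between SBR Vehicle and Sham Vehicle, *Gpx1* was 8.79, 9.38 and 8.64 in sham and 8.20, 7.93, 8.37 and 7.61 after SBR, and *Sod2* was 4.22, 4.36 and 4.67 in sham and 3.87, 3.23, 3.64 and 4.12 after SBR. Both lay lower without overlap, as did 2.77% of all genes. *Gpx1* differed by -0.90 ± 0.32 (adjusted p = 0.372, exact p = 0.0286), *Sod2* by -0.70 ± 0.37 (adjusted p = 0.704, exact p = 0.0571), and *Prdx6* by -1.14 ± 0.44 (adjusted p = 0.438, exact p = 0.0857). *Gclc*, at 0.86 ± 0.49 (adjusted p = 0.738), had the highest difference of the 10.

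With WUSTL0717 against vehicle, *Gpx4* was the enzyme whose groups lay apart, beside 2.56% of all genes. It was 6.69, 6.39, 6.04 and 6.69 with vehicle and 6.96, 7.33, 7.07 and 7.90 with the drug, a difference of 0.86 ± 0.27 or 1.81-fold (adjusted p = 0.56, exact p = 0.0286). *Cat* was 7.55, 6.78, 7.53 and 9.62 with vehicle and 8.91, 9.87, 9.21 and 10.03 with WUSTL0717. Vehicle replicate 4 lay above 2 treated libraries, and the difference was 1.64 ± 0.56, or 3.11-fold (adjusted p = 0.58, exact p = 0.0857). *Sod1* differed by 0.81 ± 0.35 (adjusted p = 0.706, exact p = 0.0857). *Nqo1* (-0.49, adjusted p = 0.875) and *Hmox1* (-0.44, adjusted p = 0.899) had values below 0.

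Against sham, the treated ileum lay apart and higher in 3 enzymes, beside 9.46% of all genes, and apart and lower in 2, beside 3.73%. *Cat*, at 6.50, 7.71 and 7.87 in sham, was 2.15 ± 0.61 higher with WUSTL0717, or 4.43-fold (adjusted p = 0.1, exact p = 0.0286). *Sod1*, at 6.80, 6.01 and 6.13 in sham and 7.17, 8.16, 7.58 and 7.78 with the drug, was 1.36 ± 0.38 higher, or 2.56-fold (adjusted p = 0.0941, exact p = 0.0286). *Gpx4* differed by 0.73 ± 0.30 (adjusted p = 0.288, exact p = 0.0571). *Gpx1* (-0.93 ± 0.32, adjusted p = 0.193) and *Prdx6* (-1.28 ± 0.44, adjusted p = 0.187) were the lower pair. All of these missed the threshold. Without SBR WUSTL0717 replicate 2, *Cat* differed by 2.03 (adjusted p = 0.179) and *Sod1* by 1.19 (adjusted p = 0.159), and 0 enzymes were called.

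Cell type and region markers also differed between the ileal groups. The 4 ileal markers summed to 7.03 to 7.33 in sham, 8.68 to 8.99 in SBR Vehicle and 8.41 to 9.24 with WUSTL0717, with 2 of 4 called higher than sham in each SBR group. Of all genes, 0.241% were called higher than sham in SBR Vehicle and 1.66% with WUSTL0717. The 5 duodenal markers summed to 5.52 to 5.94, 3.50 to 4.77 and 4.01 to 5.22, with 0 called. Macrophage markers summed to 9.37 to 9.88 in sham, 8.94 to 10.1 in SBR Vehicle and 8.61 to 9.12 with WUSTL0717, with 0 of 12 called, and those of lymphocytes and plasma cells to 4.82 to 6.18, 4.63 to 5.30 and 3.82 to 4.56, with 1 of 4 called lower against sham. Of all genes, 0.108% were called lower than sham in SBR Vehicle and 0.514% with WUSTL0717. Enterocyte markers summed to 11.5 to 11.7, 10.7 to 11.7 and 11.5 to 12.0. Their part in the values of *Cat*, *Sod1*, *Gpx1* and *Prdx6* was not tested.

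The regions were compared within the intestinal batch, in a fit that treats duodenal and ileal libraries as independent, since the labels do not say whether they came from the same mice. Called lower in the ileum were 2 of the 10 enzymes in sham, 4 in SBR Vehicle and 6 with WUSTL0717, whereas the median difference of all genes was 0.52 in sham, 0.98 in SBR Vehicle and 0.95 with WUSTL0717. In sham, *Nqo1* was 1.82 ± 0.38 lower in the ileum (3.39, 3.31 and 2.67, against 5.07, 5.21 and 4.54 in the duodenum; adjusted p = 0.00252), and *Gpx1* was 2.08 ± 0.56 lower (adjusted p = 0.0149). *Gclc*, at 6.24, 5.55 and 5.15 in the ileum, was 1.81 ± 0.59 higher (adjusted p = 0.0419). All 3 lay apart, and the exact p was 0.1 for each, the smallest that 3 against 3 can give. This is 1 of 10 higher and 2 lower, beside 10.8% and 3.83% of all genes, and 1 higher and 4 lower without overlap, beside 30.8% and 7.13%. *Gclc* lost its call without any 1 of the 6 libraries: 1.52, 1.86 and 2.06 without ileal replicates 1, 2 and 3, and 1.88, 1.72 and 1.83 without duodenal replicates 1, 2 and 3. *Gpx1* lost its call without ileal replicate 3 (-1.93, adjusted p = 0.0565). Over 11 alternatives *Nqo1* was called in 10, *Gpx1* in 11 and *Gclc* in 6. The medians for the regional fit were taken over the genes tested in both regions together, a slightly different set from those of each region, so the centred differences below are not those of the library medians given above. Relative to these medians *Gclc* was not called (1.36, adjusted p = 0.171), *Sod1* (-1.47) and *Sod2* (-1.58) were called lower beside *Nqo1* and *Gpx1*, which is 4 of 10 beside 7.39% of all genes, and *Prdx1* turned from 0.35 to -0.11.

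In SBR Vehicle, 4 enzymes were lower in the ileum and 0 higher, beside 6.77% and 50.2% of all genes. *Gpx4* was 2.55 ± 0.45 lower (adjusted p = 0.000141), *Nqo1* 1.93 ± 0.33 (adjusted p = 0.00011), *Gpx1* 1.78 ± 0.48 (adjusted p = 0.00411) and *Sod1* 1.07 ± 0.40 (adjusted p = 0.0265). The first 3 lay apart from the duodenum (exact p = 0.0286), beside 5.77% of all genes in that direction. Over 11 alternatives *Gpx1* was called in 10 and *Sod1* in 9. The *Sod1* call was lost without Ileum SBR Vehicle replicate 2 (-0.88) or 3 (-0.98), or Duodenum SBR Vehicle replicate 1 (-0.89), 2 (-1.01) or 4 (-1.07). *Cat* was called lower without Ileum SBR Vehicle replicate 4 (-1.39), *Prdx6* without Ileum SBR Vehicle replicate 2 (-1.31) or Duodenum SBR Vehicle replicate 4 (-1.38), and *Sod2* without the latter (-1.15). After centring, 7 of 10 were lower, beside 16.6% of all genes, and *Hmox1* and *Gclc* changed from 0.27 and 0.02 to -0.66 and -0.91, neither of them called, relative to the medians of the regional fit.

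With WUSTL0717, 6 enzymes were lower in the ileum and 0 higher, beside 7.13% and 48.7% of all genes. *Nqo1*, at 2.34, 3.77, 2.98 and 3.01 in the ileum and 5.86, 6.33, 6.42 and 6.35 in the duodenum, was 3.21 ± 0.33 lower (adjusted p = 2.16e-07). *Gpx4* was 2.55 lower (adjusted p = 0.000142), *Gpx1* 2.31 (adjusted p = 0.000603), *Hmox1* 2.04 (adjusted p = 0.00248), *Sod1* 2.02 (adjusted p = 0.000377) and *Prdx1* 1.92 (adjusted p = 0.0109). These 6 calls were kept when any 1 of the 8 libraries was left out. Over the alternatives *Prdx1* was called in 10 of 11, with a highest adjusted p of 0.0532. In 8 of 10, the 6 and *Cat* and *Prdx6*, the regions did not overlap (exact p = 0.0286 for each), beside 6.37% of all genes in that direction. *Cat* differed by -1.29 (adjusted p = 0.0598), and was called without Duodenum SBR WUSTL0717 replicate 2 (-1.53). After centring, 9 of 10 were lower, beside 15.8% of all genes, all but *Gclc* (-1.18, adjusted p = 0.0998).

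**Figure D5:**
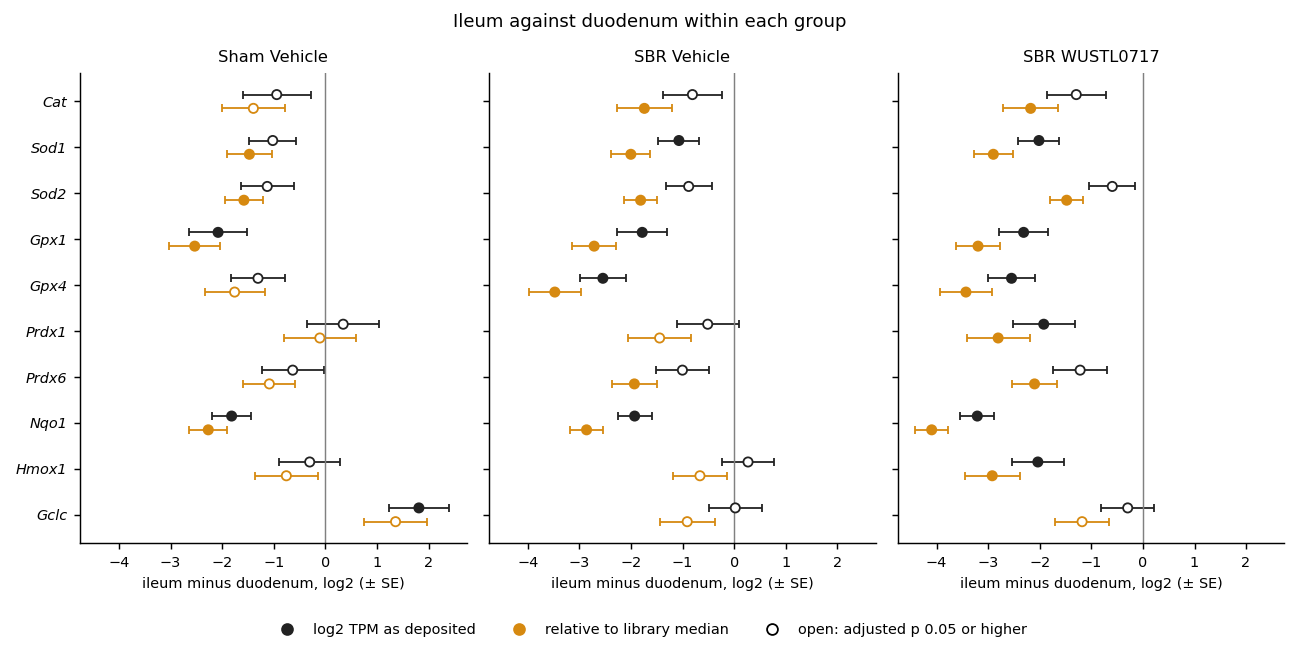
Log2 differences of the ileum from the duodenum (points) with standard errors (bars) for the 10 enzymes in each group, black as deposited and orange relative to the library median, filled where the adjusted p is under 0.05. *Nqo1* and *Gpx1* lie below 0 in all 3 groups, and *Gclc* lies above 0 in sham.

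Whether the effects of SBR or of WUSTL0717 differed between the regions was tested with the interaction, and limma called 0 of the 10 enzymes for either, beside 0.0754% and 0.0251% of all genes. After centring it also called 0 for either, beside 0.377% and 0.0188%. As deposited, there were 1 and 2 at an unadjusted p under 0.05, beside 13.8% and 3.33% of all genes. For SBR the largest was *Gclc* (-1.79 ± 0.78, adjusted p = 0.342), whose difference was 2.65 in the duodenum and 0.86 in the ileum. For WUSTL0717 they were *Hmox1* (-2.31 ± 0.72, adjusted p = 0.964) and *Nqo1* (-1.28 ± 0.47, adjusted p = 1). Liver and intestine lie in different batches, and side by side *Cat* differed with WUSTL0717 after SBR by 0.55 in the liver, 2.12 in the duodenum and 1.64 in the ileum, and *Nqo1* by -0.37, 0.79 and -0.49.

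Of the pathway genes in the duodenum, 107 were tested. After SBR 0 were called, and 3 were higher after centring, beside 0.61% of all genes on that scale. With WUSTL0717 against SBR Vehicle 3 were higher, and 3 after centring, beside 0.252% and 0.205% of all genes. Against sham 12 were higher, and 21 after centring, beside 0.749% and 2.41%. On either scale 0 were lower in each comparison. The 3 were the epoxide hydrolase *Ephx1* (3.77), the malic enzyme *Me1* (2.87), which makes NADPH, and the aldehyde dehydrogenase *Aldh3a2* (2.52). Against sham they included *Aldh3a2* (3.67), *Gstm1* (3.16) and *Gstm3* (2.74) among 6 of 17 NRF2 targets, *Idh1* (3.15) and *Me1* (2.79) for NADPH, *Gclm* (2.83), the partner subunit of *Gclc*, *Mt1* (3.38), and the peroxisomal oxidase *Acox2* (3.17).

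In the ileum *Acox2* was the 1 pathway gene called after SBR (2.62), beside 0.349% of all genes, and 0 were called with WUSTL0717 against vehicle, beside 0.0697%. Centring left these counts at 1 and 0. With WUSTL0717 against sham 5 were higher and 2 lower, beside 1.66% and 0.514% of all genes, and 7 and 2 after centring, beside 1.97% and 0.716%. The 5 and the 2 were *Acox2* (3.55), *Me1* (2.59), *Mafg* (1.92), *Taldo1* (1.68) and *Sod3* (1.45), and *Gsr* (-1.96), which recycles glutathione, and *Duoxa2* (-1.59), the maturation factor of an epithelial peroxide-producing oxidase. Of the 17 NRF2 targets, 8 were lower in the ileum in sham, 9 in SBR Vehicle and 12 with WUSTL0717, against 3, 2 and 1 higher. Of all genes, 3.83%, 6.77% and 7.13% were lower and 10.8%, 50.2% and 48.7% higher. After centring 8, 12 and 13 of the 17 were lower and 1 in each group higher, beside 7.39%, 16.6% and 15.8% of all genes lower. The glutathione transferase *Gsta4* differed by -4.27, -4.14 and -3.95 in the 3 groups, and *Gstm3* by -5.88 with WUSTL0717. *Nfe2l2* was lower in the ileum in all 3 groups (-1.68, -1.84 and -1.88), whereas *Bach1*, whose product represses *Hmox1*, was higher (2.67, 2.17 and 2.57). Over all 108 pathway genes, 16, 32 and 34 were higher in the ileum and 18, 27 and 36 lower, and after centring 10, 11 and 13 were higher and 24, 44 and 46 lower.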

How the data were processed

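RNA was sequenced from 40 libraries of liver, duodenum and ileum in 9 groups. Per the labels and the methods of the study, ribosomal RNA was removed before library preparation, reads were aligned to GRCm38 with STAR and counted with featureCounts, and the authors deposited 1 table of log2 TPM after batch correction with ComBat. The pseudocount of the log2 is not given in the sources used here. Values ran from -1.69 to 18.4, with 2752 below 0, which a log2 of TPM plus 1 could not give before the correction. Back-transformed to TPM on the assumption of a pseudocount of 1, libraries summed to between 618212 and 863110. TPM keeps no read counts, so the depth is unknown and no counting interval is given. The study tested genes with two-sample tests, whereas here a fit across all genes was used.

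A gene entered a fit if its log2 TPM averaged 1 or more over the libraries in it. Differences were tested with limma 3.58.1 (R 4.3.3, empirical Bayes with a variance trend), with all 3 groups of a tissue in a fit or the 6 intestinal groups for regional comparisons, and Benjamini-Hochberg adjustment over all genes tested at 0.05. Fold changes are on the log2 TPM scale of the table. Single enzymes also had an exact two-sided permutation test over libraries, and each fit was repeated with libraries centred on their medians over the genes in that fit. Tables and figures were made with Python 3.11.15, numpy 2.4.6, pandas 2.3.3 and matplotlib 3.10.9. Gene positions come from the GENCODE annotation of GRCm38 and promoters from RefSeq. A marker sum is log2 of the summed back-transformed TPM plus 1. The code for the tests was checked on simulated data.

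All 10 enzymes are named throughout. Other genes were named from the pathway lists, at most 3 of each list in a comparison and in order of their p-values among those called, and *Srxn1* was followed into the other liver comparisons after its values were seen. *Alb*, *Fabp1* and *Sis* come from the marker lists and were named after their values were seen. For each enzyme, nearest profiles were sought among the genes outside the 10. Some values for genes outside the 10 are not reported here. The enzymes and lists were chosen with earlier results of these data known. Alternatives were no filter, a filter at 3, pseudocounts of 0.1 and 5, centring, quantile normalization, library weights, an unmoderated test, a fit restricted to the groups compared, a fit with no variance trend, the replicate block and leaving out each library. Added after seeing the data was centring together with leaving out Liver SBR Vehicle replicate 2 or Duodenum SBR Vehicle replicate 1.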

Additional observations from a re-analysis of the deposited data

Results flagged for a closer look

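The values of the 10 enzymes were examined in the 7 groups of 4, 5 or 8 libraries, and in 6 of these 70 sets 1 library stood far from the rest of its group by Dixon's criterion, which chance alone meets in about 1 of 20 sets. *Gpx4* (8.14 log2 TPM) and *Prdx1* (7.33) were low in Liver SBR Vehicle replicate 2, where the next lowest values were 8.60 and 8.10. *Cat* was 9.49 in Duodenum SBR Vehicle replicate 3, and the next highest library was 8.49. *Sod2* was 3.83 in Duodenum SBR WUSTL0717 replicate 4 and at least 4.92 in the other libraries. *Nqo1* was 5.86 in Duodenum SBR WUSTL0717 replicate 1 and between 6.33 and 6.42 in the others. *Hmox1* was 3.84 in Ileum SBR Vehicle replicate 1 and between 3.14 and 3.25 in the others.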

How the results depend on the processing

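Depth is unknown, since TPM keeps no read counts, so a value near 0 cannot be given a detection limit. In intestinal groups of 3 or 4, a difference as large as 6.29-fold (duodenal *Gclc*, SBR Vehicle against sham) missed the threshold. The reason was not tested. ComBat removed most of the difference in level between the batches, and its effect on spread within the tissues cannot be undone. Scaling moved the direction of calls. The share of called genes that were higher was 89.3% in liver SBR Vehicle against sham, 41.5% after centring and 45.6% after quantile normalization. For liver WUSTL0717 these shares were 35.1%, 58.4% and 48.8% against SBR Vehicle and 96.9%, 54.5% and 56.1% against sham. For the ileum against the duodenum they were 73.8%, 41.7% and 46.2% in sham, 88.1%, 46.7% and 55.4% in SBR Vehicle and 87.2%, 46.8% and 55.2% with WUSTL0717. They were 93.4%, 92.6% and 81.9% in duodenum WUSTL0717 against sham and 41.7%, 18.3% and 24.4% for the interaction of region and SBR. Over the 10 enzymes and 14 comparisons, 1540 values under alternatives were computed: 1399 kept their direction and their side of the threshold, 73 newly passed, 23 no longer passed and 45 changed sign. The cause was not tested.

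In no comparison did every same-numbered pair correlate above 0.1 in its deviations from the group means. Between the regions in sham, 2 of 3 pairs did, with correlations of 0.07 to 0.45. So few pairs cannot settle whether replicate numbers pair the libraries. With the number as a block, 5, 1 and 4 enzymes were called in the 3 liver comparisons, 0 in the duodenal and ileal ones, and 2, 4 and 8 between the regions. The share of all genes called with the block is given only within the ranges at the end.

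With each library centred on its median, the number of the 10 enzymes called became 8 in liver SBR Vehicle against sham, 5 in liver WUSTL0717 against SBR Vehicle and 7 in ileum against duodenum in SBR Vehicle, beside 49.2%, 19.7% and 31.1% of all genes. Under the same setting the sign of the difference was the opposite for *Prdx1* -0.18 in liver SBR Vehicle against sham, *Cat* -0.19, *Sod1* -0.15, *Sod2* -0.20, *Gpx1* -0.15 and *Prdx6* -0.23 in liver WUSTL0717 against sham, *Prdx1* -0.11 in ileum against duodenum in sham, *Hmox1* -0.66 and *Gclc* -0.91 in ileum against duodenum in SBR Vehicle, *Cat* -0.35, *Sod2* -0.23 and *Gpx1* -0.18 in the interaction of region and SBR, *Gpx4* 0.045 in the interaction of region and WUSTL0717. With quantile normalization, the number of the 10 enzymes called became 9 in liver SBR Vehicle against sham, 5 in liver WUSTL0717 against SBR Vehicle and 5 in ileum against duodenum in sham. Over all genes, 3572, 1286 and 1079 were then called higher and 4263, 1349 and 1259 lower. Under the same setting the sign of the difference was the opposite for *Cat* -0.055, *Sod1* -0.053, *Sod2* -0.18, *Gpx1* -0.010 and *Prdx6* -0.20 in liver WUSTL0717 against sham, *Gpx1* -0.024, *Prdx6* -0.27 and *Gclc* -0.0082 in duodenum WUSTL0717 against SBR Vehicle, *Gclc* -0.12 in ileum WUSTL0717 against SBR Vehicle, *Hmox1* -0.65 and *Gclc* -0.42 in ileum against duodenum in SBR Vehicle, *Cat* -0.057 and *Sod2* -0.073 in the interaction of region and SBR, *Cat* 0.034 and *Gpx4* 0.51 in the interaction of region and WUSTL0717. For the settings that follow, calls over all genes are given only as ranges at the end. The enzyme counts under them therefore cannot be set against a share of all genes. With centring and 1 doubted library left out together, a setting added after seeing the data, the number of the 10 enzymes called became 9 in liver SBR Vehicle against sham, 6 in liver WUSTL0717 against SBR Vehicle and 1 in duodenum SBR Vehicle against sham. Under the same setting the sign of the difference was the opposite for *Prdx1* -0.11 in liver SBR Vehicle against sham, *Gclc* -0.074 in duodenum WUSTL0717 against SBR Vehicle. With an unmoderated two-sample test, the number of the 10 enzymes called became 0 in liver WUSTL0717 against SBR Vehicle, 0 in duodenum WUSTL0717 against sham, 1 in ileum against duodenum in sham and 2 in ileum against duodenum in SBR Vehicle. With library weights, the number of the 10 enzymes called became 3 in liver WUSTL0717 against SBR Vehicle, 3 in duodenum SBR Vehicle against sham, 4 in duodenum WUSTL0717 against sham, 2 in ileum WUSTL0717 against sham and 6 in ileum against duodenum in sham. Under the same setting the sign of the difference was the opposite for *Gpx4* -0.0040 in liver WUSTL0717 against SBR Vehicle, *Prdx6* -0.022 in liver WUSTL0717 against sham, *Cat* -0.085 and *Prdx1* -0.51 in duodenum SBR Vehicle against sham, *Gpx1* 0.0078 and *Gclc* -0.20 in ileum WUSTL0717 against SBR Vehicle, *Prdx1* -0.21 and *Hmox1* 0.11 in ileum against duodenum in sham, *Gclc* -0.016 in ileum against duodenum in SBR Vehicle, *Sod1* 0.35 and *Nqo1* 0.055 in the interaction of region and SBR, *Sod2* -0.56 in the interaction of region and WUSTL0717. In a fit of the compared groups alone, the number of the 10 enzymes called became 0 in liver WUSTL0717 against SBR Vehicle and 0 in duodenum WUSTL0717 against sham. With the replicate number as a block, the number of the 10 enzymes called became 0 in duodenum WUSTL0717 against sham. Under the same setting the sign of the difference was the opposite for *Gclc* 0.20 in liver WUSTL0717 against SBR Vehicle, *Hmox1* -0.38 in duodenum SBR Vehicle against sham. With a pseudocount of 5, the number of the 10 enzymes called became 1 in duodenum WUSTL0717 against sham. With pseudocount 0.1, the sign of the difference was the opposite for *Gpx4* 0.0026 in the interaction of region and WUSTL0717.

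Each library was also left out in turn, in 1320 values, of which 71 changed sign, and an arm left with 2 libraries shares the spread of the other groups. The number of enzymes called ran from 5 to 6 in liver SBR Vehicle against sham, 0 to 1 in liver WUSTL0717 against SBR Vehicle, 3 to 4 in liver WUSTL0717 against sham, 0 to 1 in duodenum SBR Vehicle against sham, 0 to 1 in duodenum WUSTL0717 against sham, 1 to 2 in ileum against duodenum in sham, 3 to 5 in ileum against duodenum in SBR Vehicle and 6 to 7 in ileum against duodenum in WUSTL0717, and was 0 throughout in the ileum, in duodenum WUSTL0717 against SBR Vehicle and in both interactions. In liver WUSTL0717 against SBR Vehicle *Gclc* ran from -0.19 to 0.078. In duodenum SBR Vehicle against sham *Cat* ran from -0.33 to 0.80, *Prdx1* ran from -0.46 to 1.13 and *Hmox1* ran from -0.34 to 0.50. In duodenum WUSTL0717 against SBR Vehicle *Sod2* ran from -0.14 to 0.57, *Prdx6* ran from -0.30 to 0.70 and *Gclc* ran from -0.089 to 0.70. In ileum SBR Vehicle against sham *Cat* ran from -0.073 to 0.87 and *Gpx4* ran from -0.21 to 0.0052. In ileum WUSTL0717 against SBR Vehicle *Gpx1* ran from -0.16 to 0.099, *Prdx1* ran from -0.44 to 0.066, *Prdx6* ran from -0.53 to 0.16 and *Gclc* ran from -0.30 to 0.34. In ileum WUSTL0717 against sham *Nqo1* ran from -0.35 to 0.13 and *Hmox1* ran from -0.00099 to 0.52. In ileum against duodenum in sham *Prdx1* ran from -0.54 to 1.06 and *Hmox1* ran from -0.57 to 0.080. In ileum against duodenum in SBR Vehicle *Hmox1* ran from -0.051 to 0.72 and *Gclc* ran from -0.24 to 0.32. In ileum against duodenum in WUSTL0717 *Gclc* ran from -0.65 to 0.17. In the interaction of region and SBR *Cat* ran from -0.45 to 0.83, *Sod1* ran from -0.33 to 0.27, *Sod2* ran from -0.021 to 0.68, *Gpx1* ran from -0.11 to 0.91, *Prdx1* ran from -1.57 to 0.025, *Prdx6* ran from -0.74 to 0.27 and *Nqo1* ran from -0.34 to 0.086. In the interaction of region and WUSTL0717 *Cat* ran from -0.85 to 0.099, *Sod2* ran from -0.15 to 0.55, *Gpx4* ran from -0.26 to 0.32, *Prdx6* ran from -0.85 to 0.16 and *Gclc* ran from -0.67 to 0.15.

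Over all genes, the count called was 6663 in liver SBR Vehicle against sham (4180 to 10462 over the alternatives, 5399 to 9010 with 1 library left out), 652 in liver WUSTL0717 against SBR Vehicle (0 to 3133 over the alternatives, 93 to 1075 with 1 library left out), 4580 in liver WUSTL0717 against sham (3120 to 8387 over the alternatives, 2456 to 4875 with 1 library left out), 0 in duodenum SBR Vehicle against sham (0 to 2497 over the alternatives, 0 to 589 with 1 library left out), 39 in duodenum WUSTL0717 against SBR Vehicle (2 to 85 over the alternatives, 7 to 28 with 1 library left out), 121 in duodenum WUSTL0717 against sham (1 to 1124 over the alternatives, 22 to 84 with 1 library left out), 55 in ileum SBR Vehicle against sham (5 to 279 over the alternatives, 3 to 38 with 1 library left out), 11 in ileum WUSTL0717 against SBR Vehicle (1 to 18 over the alternatives, 2 to 12 with 1 library left out), 343 in ileum WUSTL0717 against sham (31 to 764 over the alternatives, 65 to 241 with 1 library left out), 2331 in ileum against duodenum in sham (1070 to 5549 over the alternatives, 1257 to 1836 with 1 library left out), 9068 in ileum against duodenum in SBR Vehicle (4826 to 10770 over the alternatives, 7586 to 9733 with 1 library left out), 8895 in ileum against duodenum in WUSTL0717 (4737 to 9811 over the alternatives, 7372 to 9070 with 1 library left out), 12 in the interaction of region and SBR (4 to 1989 over the alternatives, 1 to 229 with 1 library left out), 4 in the interaction of region and WUSTL0717 (2 to 9 over the alternatives, 3 to 4 with 1 library left out).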
